A study of Mus musculus with 6 samples.

Results

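Clathrin adaptors and the genes of mannose phosphate sorting were examined in microglia, the macrophages that live in brain tissue. The group holds 40 of the 23930 genes in the authors' deposited table, taken by gene symbol: the subunits of the adaptor complexes AP-1 to AP-5, the clathrin chains, the GGA adaptors, the sorting receptors M6pr, Igf2r and Sort1, the enzymes that make the mannose phosphate tag, and the retromer core. The rule uses gene symbols, but the group was selected on results of the same comparison, since the deposited folds and p-values were known when it was put forward. All values below are therefore a description and none is a test of the group. Microglia were sorted from perfused brains of adult wild-type C57BL/6 mice as cells with CD11b, low CD45 and no CD206. The Saline group is 3 mice given saline 4 times at intervals of 2 h, and the Meth group is 3 mice given methamphetamine at 5 mg/kg on the same schedule. Methamphetamine is a psychostimulant that releases monoamines. The sorted cells were read as bulk RNA. The time between the last injection and collection is not given in the sources used here. Transcripts were read by a targeted panel in which each gene has its own primer pair.

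Clathrin is a coat protein built of heavy and light chains that bends membrane into vesicles. Adaptor complexes link it to cargo: AP-2 acts at the plasma membrane, AP-1 and the GGA proteins act between the trans-Golgi network and endosomes, AP-3 serves lysosomal membrane proteins, and AP-4 and AP-5 form coats without clathrin. New lysosomal hydrolases receive a mannose phosphate tag in the Golgi, are bound by the receptors M6pr and Igf2r, and are released in acidic endosomes, from which retromer and its partners return sorting receptors. Microglia, as phagocytes, depend on this supply of hydrolases to degrade what they take up.

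The authors' deposited table gives, for each gene, an average of each group (log2), a fold with a sign, an unadjusted p and a p adjusted for the false discovery rate (FDR). It has 0 columns of values per mouse. Values in every sample, their spread and whether the groups overlap can therefore not be shown, and sequencing depth is unknown. No gene of the group had a deposited FDR adjusted p under 0.05 (0 of 40), and the lowest was 0.1081 at Gga2. Of all listed genes, 2.24% passed that threshold, and 0.357% of the 10375 genes with an average of at least 1 in either group, called measured below. Of the 40 genes, 36 were measured, each in both groups, while Ap1m2, Ap1s3, Ap3b2 and Ap3d1 were under 1 in both. Of the 36, the deposited unadjusted p was under 0.05 for 5 genes (13.9%), 3 higher in Meth and 2 lower, beside a background of 14.7% of measured genes, so the group's share lay near that of the table. The table's share was 6.46% for higher and 8.19% for lower genes. A fold of at least 1.5 was listed for 14 of the 36 (38.9%), 6 higher and 8 lower, against 41.8% of measured genes (19.7% higher and 22.1% lower). The median Meth minus Saline difference was 0.08 on the log2 scale for the 36 genes and 0.02 for all measured genes, with 19 of the 36 higher and 17 lower. The mean of the 36 was -0.16, of the opposite sign, and the 2 largest differences, those of M6pr and Ap1s2, were both lower in Meth. Because the RNA came from sorted cells in bulk, fewer cells of a type and less RNA per cell cannot be told apart.

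All 12 microglial markers examined were measured, with Saline averages from 7.52 to 14.89, and they summed to 5.12% of all values in Saline and 2.89% in Meth. Of these 12, 9 had a lower and 2 a higher Meth average. Markers of border-associated macrophages, astrocytes, neurons, oligodendrocytes, endothelial and mural cells, monocytes and neutrophils, and lymphocytes summed to 0.0432% in Saline and 0.0316% in Meth. The sums of the lists went in different directions. Astrocyte markers summed to 0.0152% in Saline and 0.00627% in Meth. The highest of them was Slc1a3, at 7.02 in Saline and 5.21 in Meth. Gene by gene, 4 of the 7 astrocyte markers stood above their Saline value in Meth and 3 below it. The sums of border-associated macrophage markers (0.00217% and 0.00289%) and neuron markers (0.000651% and 0.00109%) were higher in Meth. Of the neuron markers, the authors' deposited table lists Stmn2 at 1.97 in Meth with an unadjusted p of 0.0014 and Gad1 at 1.56 with one of 0.0132, against 0.92 and 0.21 in Saline. Among the markers of cells other than microglia, Cd209f, Lyve1, Ms4a7, Slc17a6, Cd3e and Cd3g were listed at 0 in both groups. The part of these shifts in the values below was not tested.

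**Figure D1:**
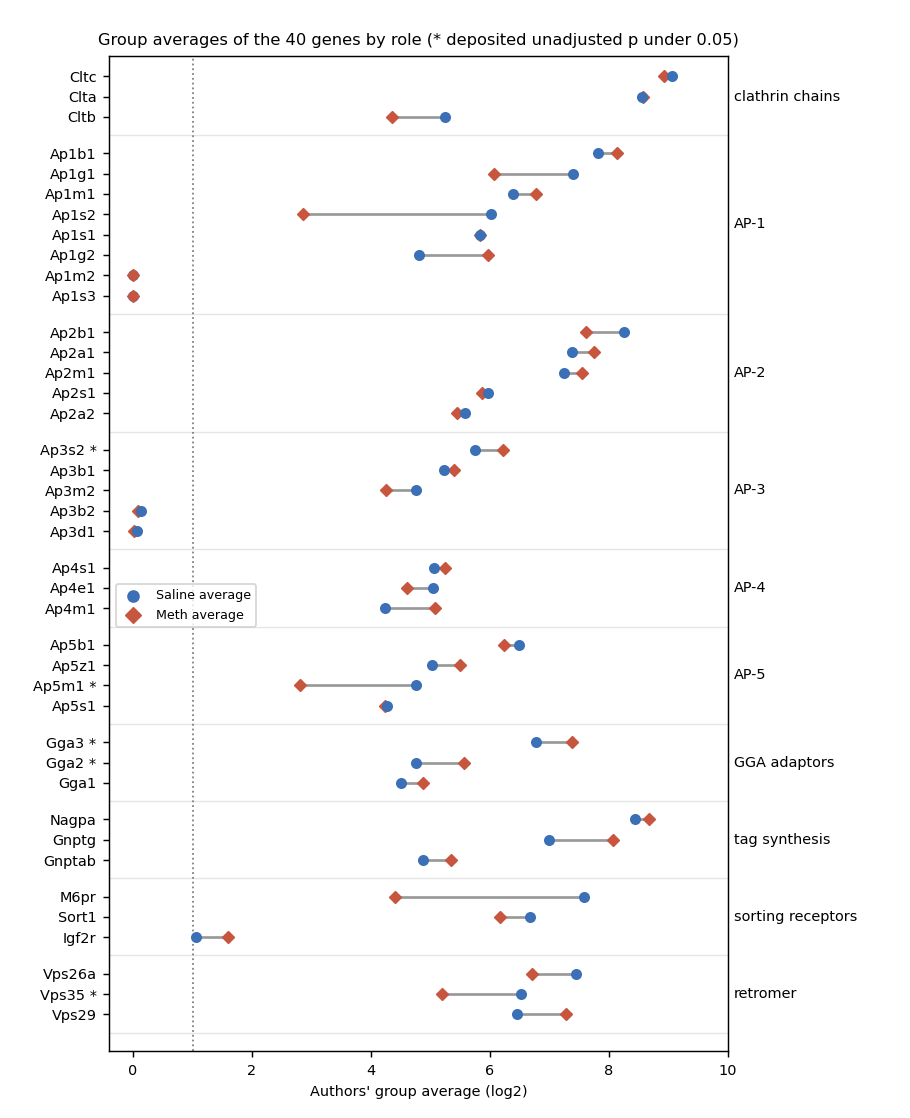
Authors' group averages (log2, horizontal axis) of the 40 genes, ordered by role, with a blue circle for Saline and a red diamond for Meth and 1 row per gene; the dotted line marks an average of 1. The longest lines belong to M6pr (7.58 in Saline, 4.41 in Meth) and Ap1s2 (6.01 and 2.85), and 4 genes lie near 0 in both groups.

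The promoters of several of these genes hold all or the core of the CLEAR element, GTCACGTGAC, the site through which the transcription factor TFEB and its relatives are known to switch on lysosomal genes. RefSeq promoter windows (build GRCm38.p6, 250 bases before to 50 after the annotated start) were at hand for 35 of the 40 genes, and both strands were searched. The other 5, M6pr, Vps35, Sort1, Ap3m2 and Ap1m1, had no window and were not searched. The core TCACGTG was found in 7 of the 35 (20%): Ap1s2, Ap5z1, Gga2, Gnptg, Igf2r, Nagpa and Vps26a. It was found in 7.1% of measured genes with a window and in 3.77% of all windows. The full GTCACGTGAC, which contains that core, was found in Igf2r and Vps26a (5.71% of the 35), in 0.9% of measured genes and in 0.326% of all windows. A match describes the letters of a window and says nothing of binding in these cells. Of the 7 genes, Ap5z1, Gga2, Gnptg, Igf2r and Nagpa had a higher and Ap1s2 and Vps26a a lower average in Meth. The windows of 5 of them are shown because they include both genes with the full element and the genes with the core whose averages differed by at least 1.5-fold; capitals mark each TCACGTG on either strand, so that an 8-letter run is a match on both. They are Igf2r (chr17:12769657-12769956, minus strand), Vps26a (chr10:62486549-62486848, minus strand), Gga2 (chr7:122021149-122021448, minus strand), Gnptg (chr17:25240067-25240366, minus strand) and Ap1s2 (chrX:163908767-163909066, plus strand), each 5′ to 3′ in the direction of the gene.
Igf2r: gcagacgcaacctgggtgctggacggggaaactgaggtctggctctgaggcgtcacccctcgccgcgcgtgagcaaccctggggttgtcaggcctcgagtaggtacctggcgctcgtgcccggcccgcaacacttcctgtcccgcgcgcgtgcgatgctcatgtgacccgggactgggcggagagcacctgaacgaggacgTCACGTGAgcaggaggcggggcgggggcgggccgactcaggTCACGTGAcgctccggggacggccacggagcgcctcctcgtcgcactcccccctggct
Vps26a: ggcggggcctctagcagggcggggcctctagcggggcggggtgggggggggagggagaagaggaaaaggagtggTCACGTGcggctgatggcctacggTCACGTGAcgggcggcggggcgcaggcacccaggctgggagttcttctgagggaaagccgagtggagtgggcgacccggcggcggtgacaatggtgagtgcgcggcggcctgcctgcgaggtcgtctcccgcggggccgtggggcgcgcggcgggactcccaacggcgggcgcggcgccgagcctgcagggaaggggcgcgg
Gga2: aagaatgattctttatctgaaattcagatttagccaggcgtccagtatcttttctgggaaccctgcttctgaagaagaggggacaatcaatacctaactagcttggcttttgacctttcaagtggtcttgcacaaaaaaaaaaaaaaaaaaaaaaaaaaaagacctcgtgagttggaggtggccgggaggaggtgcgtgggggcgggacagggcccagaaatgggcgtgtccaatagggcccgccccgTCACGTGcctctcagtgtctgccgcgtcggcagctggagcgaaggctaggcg
Gnptg: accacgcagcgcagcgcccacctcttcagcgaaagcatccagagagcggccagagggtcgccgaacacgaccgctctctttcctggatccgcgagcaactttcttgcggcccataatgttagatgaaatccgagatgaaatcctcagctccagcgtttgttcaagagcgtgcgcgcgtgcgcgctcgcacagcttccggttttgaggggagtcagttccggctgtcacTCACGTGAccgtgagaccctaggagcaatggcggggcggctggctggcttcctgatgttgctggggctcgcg
Ap1s2: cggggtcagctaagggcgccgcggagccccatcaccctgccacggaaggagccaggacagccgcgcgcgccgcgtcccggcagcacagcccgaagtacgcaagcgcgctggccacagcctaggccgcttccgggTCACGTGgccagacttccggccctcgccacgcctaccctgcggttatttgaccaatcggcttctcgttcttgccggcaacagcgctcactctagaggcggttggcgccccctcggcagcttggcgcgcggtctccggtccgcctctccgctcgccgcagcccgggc
Counted from the annotated start, with -1 the base before it, the full element began at -9 in Igf2r and at -153 in Vps26a. The core began at -2 in Gga2, at -22 in Gnptg and at -116 in Ap1s2, and further cores began at -49 in Igf2r and at -176 in Vps26a. Vps26a and Gnptg each have 2 annotated starts, of which 1 window is shown. The window of the other start of Vps26a held a further full element at -184, and from the other start of Gnptg the same core began at 3.

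The enzymes that make the tag had higher averages in Meth, all 3 of 3, as did 5256 of the 10375 measured genes. The phosphotransferase that starts the tag consists of the Gnptab product, which carries the catalytic chains, and the Gnptg product, which aids recognition of part of the hydrolases. The authors' deposited table lists Gnptg at 8.06 in Meth and 6.99 in Saline, a 2.09-fold difference with an unadjusted p of 0.0514, just outside the threshold. In the authors' deposited table Gnptab stood at 5.34 (Meth) against 4.88, with an unadjusted p of 0.3755. Nagpa, the uncovering enzyme that removes the covering sugar from the phosphate, had the highest Saline average of the 3 at 8.43, against 8.68 in Meth (unadjusted p = 0.1563), by the authors' averages. In GENCODE M21, 49.5% of the exon bases of Gnptg also lie in exons of Unkl on the opposite strand, and Unkl itself was listed at 5.79 in Meth and 5.10 in Saline. Which bases each primer pair reads, and whether strand was kept, is not given in the sources used here, so reads from the shared bases cannot be assigned to either gene.

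The receptors that carry tagged hydrolases went in different directions. M6pr encodes the small, cation-dependent mannose phosphate receptor, and the authors' deposited table lists it at 4.41 in Meth and 7.58 in Saline. That 9.05-fold lower value is the 5th lowest of 23930 in the authors' deposited table, yet its unadjusted p was 0.0623 and its FDR adjusted p 0.5249. The large cation-independent receptor, Igf2r, which also binds and clears insulin-like growth factor 2, had, in the authors' deposited table, a Meth average of 1.59 and a Saline average of 1.06 (unadjusted p = 0.2235). M6pr thus lay above Igf2r by 6.52 log2 units in Saline and by 2.82 in Meth. For genes well above the floor, the step from Saline to Meth in such a difference depends less on how well each primer pair works than the difference itself does. Igf2r, however, lay just above the cut-off of 1 in Saline. Its own difference was 0.53, and 0.12 when 10 rather than 1 was added to its level before the log. Sortilin, the Sort1 product, sorts hydrolases and other cargo without the tag, and the authors' deposited table lists it at 6.17 in Meth and 6.67 in Saline (1.42-fold lower, unadjusted p = 0.0558). Of 13 measured genes in the table that differed by at least 8-fold, 11 were lower in Meth. An unadjusted p under 0.05 was listed for 2 of those 11, beside 850 of the 5058 measured genes with a lower Meth average.

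The GGA adaptors, monomeric proteins that bind the tails of the mannose phosphate receptors and sortilin, had higher averages in Meth for 3 of 3 genes. Of all 10375 measured genes, 5256 were higher. Gga2 had the lowest p of the 40 genes in the authors' deposited table: 5.56 in Meth against 4.75 in Saline, 1.75-fold higher, unadjusted p = 0.0029 and FDR adjusted p = 0.1081. Gga3, with the highest Saline average of the 3, was 1.52-fold higher in the authors' deposited table (7.38 in Meth, 6.77 in Saline, unadjusted p = 0.0209). Gga1 was listed at 4.87 in Meth and 4.50 in Saline, a difference with an unadjusted p of 0.5654 in the authors' deposited table. The step of Gga2 (0.81 on the log2 scale) and of Gga3 (0.61) differed by 0.20, and a test of that difference was not possible from group averages.

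AP-1 showed the widest range within 1 complex, from a difference of -3.16 for Ap1s2 to 1.16 for Ap1g2 on the log2 scale, and none of its 6 measured subunits had an unadjusted p under 0.05. The large subunit gamma exists as the paralogs Ap1g1 and Ap1g2. In the authors' deposited table Ap1g1 was listed at 6.07 in Meth and 7.39 in Saline (2.50-fold lower, unadjusted p = 0.0605), and Ap1g2 at 5.97 and 4.81 (2.22-fold higher, unadjusted p = 0.0780). Ap1g1 exceeded Ap1g2 by 2.58 log2 units in Saline and by 0.10 in Meth. The small subunit sigma showed a similar spread: Ap1s1 was level at 5.83 and 5.84, while Ap1s2 was listed at 2.85 in Meth and 6.01 in Saline, 8.94-fold lower and the 6th lowest value of the authors' deposited table (unadjusted p = 0.0828). The difference of Ap1s1 minus Ap1s2 therefore moved from -0.17 in Saline to 2.98 in Meth. The beta chain Ap1b1, with the highest Saline average of the complex, stood at 8.13 in Meth and 7.82 in Saline, and the medium chain Ap1m1 at 6.77 and 6.39, by the authors' averages. Ap1m2, known as the medium chain of epithelial cells, and Ap1s3 were listed at 0 in both groups. In GENCODE M21, 18.7% of the exon bases of Ap1g1 and 9.88% of those of Ap1g2 are shared with a gene on the opposite strand, the latter with Thtpa, which was listed at 4.83 in Meth and 4.35 in Saline.

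**Figure D2:**
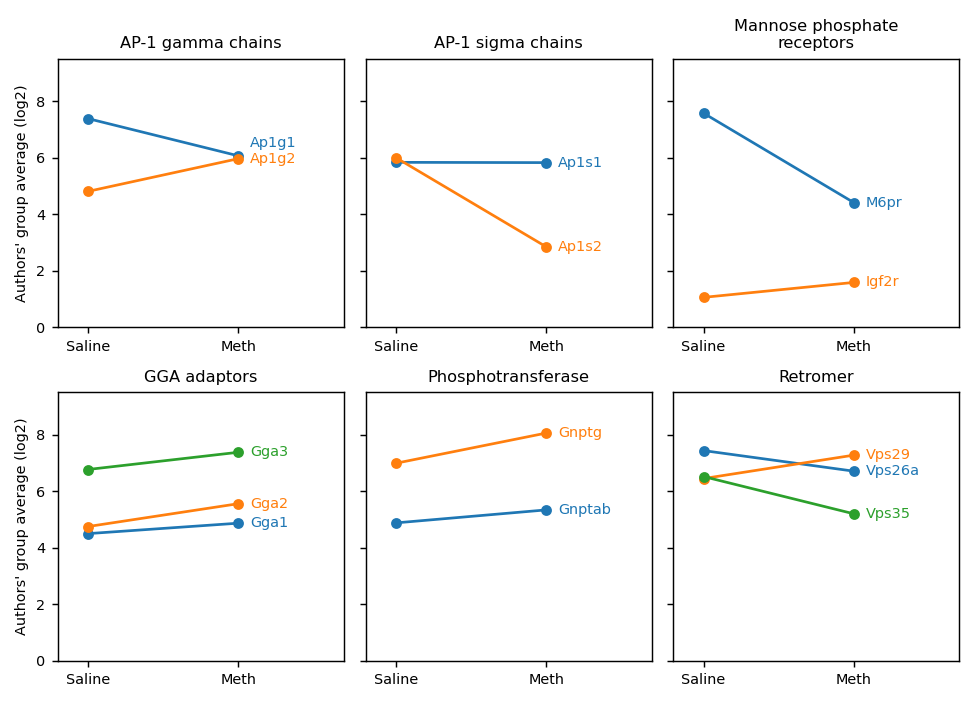
Authors' group averages (log2, vertical axis) in Saline and Meth for paralogs and partner subunits, 1 line per gene. The lines of Ap1g1 and Ap1g2 meet near 6 in Meth, those of Ap1s1 and Ap1s2 start together near 6 in Saline and part, the GGA and phosphotransferase lines all slope upward, and Vps29 slopes against Vps26a and Vps35.

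Of the clathrin chains, the light chain Cltb had the largest difference. The heavy chain Cltc had the highest Saline average of all 40 genes, 9.06 against 8.92 in Meth (unadjusted p = 0.4569), in the authors' deposited table. The light chain Clta was listed at 8.57 in Meth and 8.56 in Saline. Its paralog Cltb stood at 4.35 in Meth and 5.25 in Saline (1.86-fold lower, unadjusted p = 0.1764), by the authors' deposited table. Clta lay above Cltb by 3.31 log2 units in Saline and by 4.22 in Meth.

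AP-2, the endocytic adaptor, was measured with all 5 listed subunits, and their differences ran from -0.64 to 0.37 on the log2 scale. The beta chain Ap2b1 had the highest Saline average, 8.25 against 7.61 in Meth (1.56-fold lower, unadjusted p = 0.2387), in the authors' deposited table. The alpha chains went apart by less: Ap2a1 was listed at 7.74 in Meth and 7.37 in Saline and Ap2a2 at 5.44 and 5.58. The medium chain Ap2m1, which reads tyrosine-based signals in cargo tails, stood at 7.55 and 7.25, and the small chain Ap2s1 at 5.87 and 5.96, Meth before Saline, by the authors' averages. None of the 5 had an unadjusted p under 0.05.

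In AP-3, whose loss causes pigment and platelet defects, 3 of 5 listed subunits were measured. The rule matched no other AP-3 or AP-4 subunit among the symbols of the authors' deposited table, so others were not analysed here. The small chain Ap3s2, with the highest Saline average of the complex, was listed at 6.22 in Meth and 5.75 in Saline, a 1.39-fold difference with an unadjusted p of 0.0051 and an FDR adjusted p of 0.1631 in the authors' deposited table. Ap3b1 stood at 5.39 and 5.23, and Ap3m2, a paralog of the medium chain, at 4.25 in Meth against 4.76 (unadjusted p = 0.0537), also just outside the threshold, by the authors' deposited table. Ap3b2, the beta chain known from neurons, was listed at 0.09 in Meth and 0.13 in Saline. Ap3d1, the delta chain shared by all forms of the complex, was listed at 0.02 and 0.07, and a weak primer pair cannot be told apart from a low transcript level.

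AP-4 exports cargo such as the autophagy protein Atg9a from the trans-Golgi network, and its 3 listed subunits gave differences of -0.45 for Ap4e1 (4.60 in Meth, 5.05 in Saline), 0.19 for Ap4s1 and 0.85 for Ap4m1 on the log2 scale. Ap4s1 had the highest Saline average, 5.06 against 5.25 in Meth, by the authors' averages. Ap4m1 was listed at 5.08 in Meth and 4.23 in Saline (1.80-fold higher, unadjusted p = 0.0591), by the authors' deposited table. Exons of Ap4m1 are shared with Taf6 (22.1% of its exon bases) and with Mcm7 (5.99%), both on the opposite strand. Taf6 was listed at 3.19 in Meth and 3.10 in Saline, and Mcm7 at 6.14 and 5.32.

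AP-5, a late endosomal complex, was measured with 4 subunits. The medium chain Ap5m1 was listed at 2.80 in Meth and 4.75 in Saline, 3.87-fold lower with an unadjusted p of 0.0222 and an FDR adjusted p of 0.3746 in the authors' deposited table; this is the gene nearest to the unadjusted threshold from inside. The other subunits did not share that step: Ap5b1, with the highest Saline average, stood at 6.23 in Meth and 6.49 in Saline, Ap5s1 at 4.24 and 4.27, and Ap5z1 at 5.50 and 5.03, by the authors' averages. Differences within the complex thus ran from -1.95 to 0.47 on the log2 scale.

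All 3 retromer core genes differed by at least 1.5-fold, 2 lower and 1 higher, as did 41.8% of measured genes, and 1 of the 3 had an unadjusted p under 0.05. Vps35, the scaffold of the complex, was listed at 5.20 in Meth and 6.52 in Saline, 2.49-fold lower with an unadjusted p of 0.0186 and an FDR adjusted p of 0.3467 in the authors' deposited table. Vps26a, which helps bind cargo and had the highest Saline average, stood at 6.71 in Meth and 7.44 in Saline (1.65-fold lower, unadjusted p = 0.2128), and Vps29, which binds the other end of Vps35, at 7.28 and 6.45 (1.77-fold higher, unadjusted p = 0.1369), in the authors' deposited table. Vps35 and Vps29 were 0.07 log2 units apart in Saline, and Vps35 lay below Vps29 in Meth (a difference of -2.08).

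**Figure D3:**
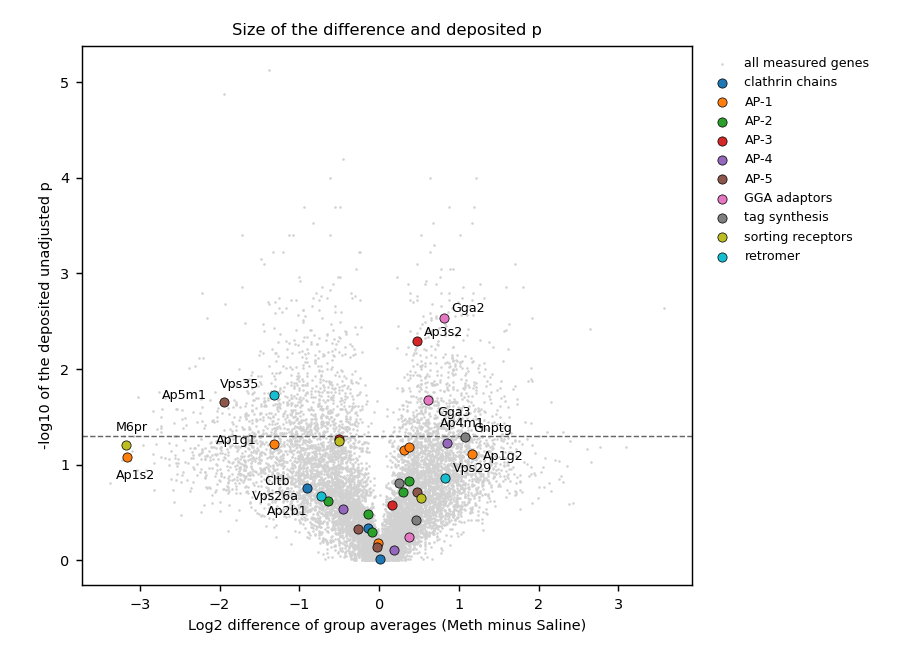
Log2 difference of the group averages (Meth minus Saline, horizontal axis) against -log10 of the deposited unadjusted p for the 36 measured genes, coloured by role, over all 10375 measured genes in grey; the dashed line marks the 0.05 threshold. Vps35 and Ap5m1 lie above the line on the left, Gga2, Ap3s2 and Gga3 on the right, while M6pr and Ap1s2 lie far left but under it and Gnptg lies just under it on the right.

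The differences of the 36 genes moved with the base composition of their transcripts. GC content of the longest coding transcript in GENCODE M21 ran from 35.4% to 62.2% with a median of 51.0%, against 50.0% for measured genes. It describes the whole transcript, as does the length below. Which bases each primer pair reads is not given, so the GC content of the bases read is unknown. Spearman's rho between GC content and the log2 difference was 0.39 across the 36 genes and 0.22 across 9965 measured genes, a description over genes that share the same libraries. The 18 genes of lower GC content had a median difference of -0.30 and the 18 of higher GC content one of 0.28. The 8 genes at least 1.5-fold lower had a median GC content of 44.3% the 6 at least 1.5-fold higher one of 51.9%, and the other 22 one of 54.2%, so GC content was not highest in the genes with the highest Meth averages relative to Saline. Ap1s2, with the lowest GC content of the 36 (35.4%), had the second largest difference, whereas M6pr stood at 48.1% and Vps29, higher in Meth, at 42.8%. Transcript length gave a rho of -0.05. With the GC trend of all measured genes subtracted, the median of the 36 was -0.01. The part of base composition in the single differences was not tested further.

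**Figure D4:**
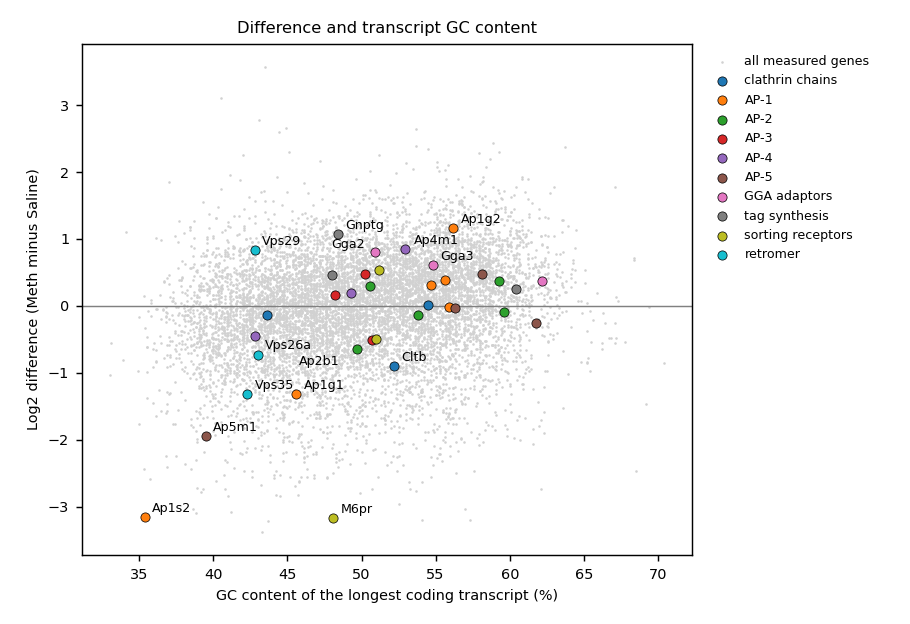
GC content of the longest coding transcript (%, horizontal axis) against the log2 difference (Meth minus Saline) for the 36 measured genes, coloured by role, over the 9965 measured genes with a matched transcript in grey. Ap1s2, Ap5m1, Vps35, Vps26a and Ap1g1 lie at the GC-poor side below 0, and Vps29 lies there above 0.

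Genes that act with these proteins were taken as lists by function, and none had a member with a deposited FDR adjusted p under 0.05. Of accessory factors of clathrin coats, 30 of 36 in the table were measured, 15 higher and 14 lower, with a median difference of 0.03. An unadjusted p under 0.05 was listed for 4 (13.3%, beside 14.7% of all measured genes). By the authors' deposited table, those 4 were the adaptor kinase Bmp2k (8.47 in Meth, 9.19 in Saline, unadjusted p = 0.0105), the AP-1 partner Aftph (7.40 and 8.36, 0.0146), the lipid phosphatase Synj1 (6.37 and 7.29, 0.0362), all lower, and the endocytic scaffold Eps15l1 (8.05 and 7.30, 0.0363), which was higher. Among factors that recruit adaptors to the trans-Golgi network and early endosomes, 22 were measured, 9 higher and 13 lower, with a median of -0.05. By the authors' deposited table, 3 of the 22 (13.6%, near the 14.7% of all measured genes) had an unadjusted p under 0.05, all lower: the small GTPase Arf4 (6.50 and 6.80, Meth before Saline), its regulator Arfgap1 (6.61 and 7.12) and the endosomal GTPase Rab5b (5.72 and 6.76). Arf5 was the next at 4.53 and 4.75 (unadjusted p = 0.0723 in the authors' deposited table).

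Retromer partners and retrograde sorting factors were lower for 11 of 13 measured genes and higher for 1, beside 5058 lower and 5256 higher of all 10375. Their median was -0.38, beside 0.02 for all measured genes. The share at an unadjusted p under 0.05 was 2 of 13 (15.4%), near the 14.7% of the table. In the authors' deposited table these were the endosomal effector Ankfy1 (6.41 in Meth, 7.03 in Saline, unadjusted p = 0.0388) and the sorting nexin Snx1 (6.46 and 7.34, 0.0446). Snx6, which pairs with Snx1, was 3.14-fold lower (6.16 and 7.81, unadjusted p = 0.0567) and the retromer recycling adaptor Snx27 2.41-fold lower (5.29 and 6.56, 0.0690) in the authors' deposited table. The median GC content of these transcripts was 49.0%.

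Tagged lysosomal hydrolases and their cofactors, the cargo of the pathway, split evenly: 40 of 42 were measured, 19 higher and 21 lower, with a median of -0.05. An unadjusted p under 0.05 was listed for 5 (12.5%), 2 higher and 3 lower. The share of all measured genes was 14.7% (6.46% higher and 8.19% lower). The smallest p of the list in the authors' deposited table was that of the protease Ctsd (15.07 in Meth, 14.68 in Saline, unadjusted p = 0.0115). By the authors' deposited table, the lower ones included the sulfatase Ids (6.18 and 7.27, unadjusted p = 0.0201) and the thioesterase Ppt1 (7.19 and 8.59, 0.0211). Proteins that reach lysosomes without the tag, with the regulators of lysosomal genes, had a median of -0.40 over 12 measured genes. Of these, 8 were lower and 4 higher, beside 5058 lower and 5256 higher of all 10375 measured genes. Scarb2, the receptor that carries glucocerebrosidase, was the single member with an unadjusted p under 0.05, at 5.75 in Meth and 7.43 in Saline (0.0297), by the authors' deposited table. That is 1 of 12 (8.33%), again beside 14.7% of all measured genes. The factors that bind CLEAR elements stood at 6.66 and 7.06 for Tfeb, 6.04 and 5.90 for Tfe3, and 3.58 and 4.57 for Mitf, Meth before Saline, with unadjusted p-values of 0.1980, 0.0556 and 0.0521 in the authors' deposited table. The membrane glycoprotein Lamp2 was listed at 9.45 and 10.11 (unadjusted p = 0.0754) in the authors' deposited table.

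**Figure D5:**
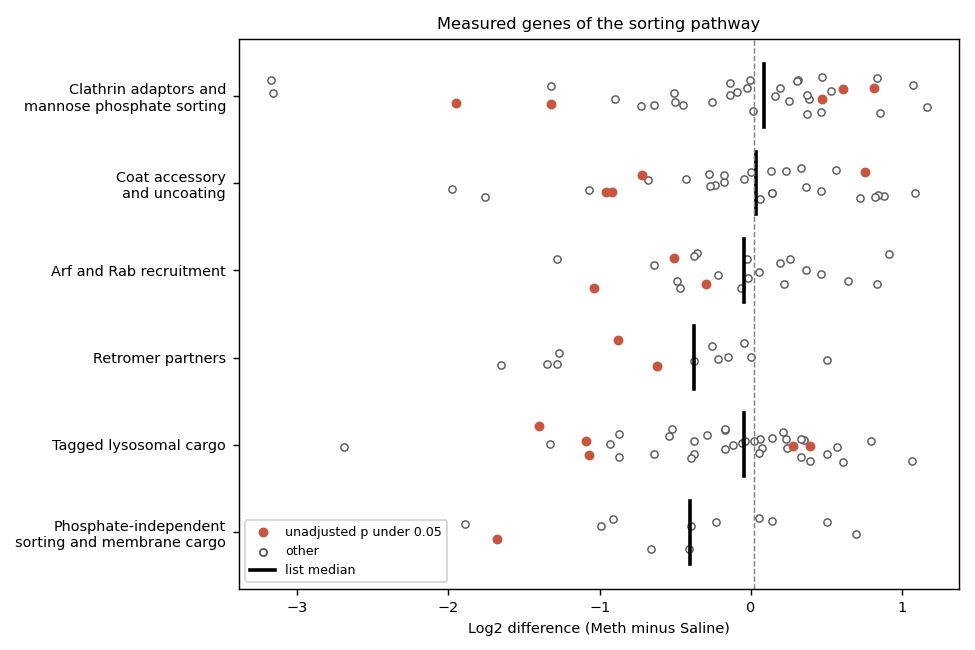
Log2 difference (Meth minus Saline, horizontal axis) of each measured gene of the 36-gene group and of the 5 lists of partner genes, with filled points for an unadjusted p under 0.05 and a black bar for each median; the dashed line is the median of all measured genes (0.02). The bars of retromer partners (-0.38) and of phosphate-independent sorting (-0.40) lie to the left of the other 4.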

How the data were processed

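Microglial RNA from 3 Saline and 3 Meth mice was read by an amplicon panel on an Ion Torrent sequencer, per the labels' protocols. How reads were aligned, counted, normalized and tested, and on which build, is not given in the sources used here. The authors' deposited table, the single file, holds log2 group averages, a signed fold handled as a score (below 0 where the Saline average is the higher one), and p-values with FDR adjustment, per the file headers. Back-transformed averages less 1, with values below 0 set to 0, sum to 981392 in Meth and to 1012103 in Saline; the scale was therefore taken as log2 of RPM (reads scaled to a fixed library total) plus 1, which understates the change of low genes. Averages below 0 (1425 genes in Saline, 14 in Meth, 0 of the 40) show that the deposited averages are not plain means of such values. With 0 columns per sample, depth, spread, duplicates and pairing could not be examined.

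Computed here were differences, counts, medians, a Benjamini-Hochberg adjustment and running-median trends over 20 bins, both the adjustment and the trends tested on simulated data. Measured genes have either average of at least 1. Named were genes with an unadjusted p under 0.05, the highest Saline average of each role, genes next to the threshold, and up to 4 genes with the smallest p per list, of which some are not reported here. Genes, lists, motifs and tests were chosen with earlier results of these data known. Symbols matched a GENCODE M21 transcript for 21366 of 23930 genes; exon overlap used the same release. Python 3.11.15, pandas 2.3.3, scipy 1.17.1 and matplotlib 3.10.9 were used.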

Additional observations from a re-analysis of the deposited data

How the results depend on the processing

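The count of genes with a deposited FDR adjusted p under 0.05 stayed at 0 without the filter on low values, with a minimum average of 3, and with the deposited p-values adjusted by the Benjamini-Hochberg method over measured genes (lowest 0.2616), under which 0 of all 10375 measured genes pass as well. The count at an unadjusted p under 0.05 stayed at 5 under both filters. The median log2 difference of 0.08 was 0.00 without the filter, 0.01 with a minimum of 3, 0.09 from the deposited folds, 0.07 with the median of measured genes subtracted, 0.06 with the level trend removed and 0.06 on the scale of log2 of RPM plus 10. It changed sign with the mean (-0.16) and with the GC trend removed (-0.01), the latter chosen after seeing the data. For the 15 genes with a fold of at least 1.5 or an unadjusted p under 0.05, no difference changed sign under the 4 rescalings, also chosen after seeing the data. The larger pseudocount keeps every sign by construction, and subtracting a median of 0.02 cannot reverse differences of this size, so the signs are no check there. Removing the level trend moved these differences by at most 0.15 and removing the GC trend by at most 0.36. The largest shift was 0.98 on the log2 scale, with the larger pseudocount. No paired analysis was possible because the table holds no values per sample, and leaving out a replicate was not run for the same reason. Depth limits cannot be stated.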

Other observations

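Further letters searched in the same 300-base promoter windows gave these shares. CCGGAAG, the core read by ETS factors, was found on either strand in 13 of 35 genes (37.1%), in 21.3% of measured genes and in 8.86% of all windows. The 13 were Ap1s2, Ap2b1, Ap2s1, Ap3b1, Ap3d1, Ap3s2, Ap4e1, Ap5b1, Ap5m1, Ap5z1, Gga1, Gnptab and Gnptg. TGACTCA, the site of the Fos and Jun factors, was found in Ap1g2 (2.86% of the 35, 4.03% of measured genes and 5.2% of all windows). TGACGTCA, the cyclic AMP response element, was found in Ap2b1 and Cltb (5.71%, 3.79% and 1.79% in the same order). These letters were chosen after the values were seen, and no test was made of them.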
